A study of Mus musculus with 7 samples.

Results

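The Polycomb group genes examined here are Ezh1, Ezh2, Suz12, Eed and Jarid2 of Polycomb repressive complex 2 (PRC2) and Bmi1, Cbx2, Cbx7 and Cbx8 of Polycomb repressive complex 1 (PRC1). They were taken by name, as 9 of the 24346 genes in the deposited expression table, and all 9 passed the filter on low values that left 14151 genes for testing. RNA was sequenced from primary neurospheres, floating cultures of neural stem and progenitor cells (NSCs), each grown from the hippocampus of a single 2-month-old C57/BL6 mouse. The 3 Med23 CKO mice (KO_117, KO_214 and KO_218) were Nestin-CreER:Med23 flox/flox animals, in which tamoxifen-activated Cre, made in Nestin-expressing cells, removes a floxed part of Med23, a subunit of the Mediator complex. The 4 control mice (WT_215, WT_116, WT_213 and WT_220) were littermates given wild type as their genotype, and per the study's methods controls carried floxed Med23 without CreER. Both groups received tamoxifen by gavage at 200 mg/kg once daily for 5 days. Treatment was at 2 months of age per the labels, whereas the methods place it earlier for mice used for cultures. A recovery of 3 to 4 weeks is given after treatment, so treatment and culture could not both fall at the same age. Mice of the same group are separate animals, so the spread between libraries includes differences between animals and cultures.

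PRC2 places methyl groups on lysine 27 of histone H3, a mark of silenced genes, through either of a pair of alternative catalytic subunits, EZH2 or EZH1, held together with SUZ12 and EED, while JARID2 is an accessory subunit that helps recruit the complex. PRC1 ubiquitinates histone H2A, and its canonical form carries a CBX protein that reads the PRC2 mark and a PCGF protein such as BMI1. In neural stem cells Polycomb proteins are known for repressing the Ink4 locus, which encodes inhibitors of the cell cycle, and the Hox clusters and other developmental regulators. EZH2 is known as the form of dividing cells and EZH1 as the form of resting and differentiated cells.

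Med23 itself was measured at 11.4, 10.3, 12.9 and 10.1 FPKM (fragments scaled to the length of the transcript and to the total of the library) in WT_215, WT_116, WT_213 and WT_220 and at 9.97, 9.27 and 8.12 FPKM in KO_117, KO_214 and KO_218. Every Med23 CKO library lay below every control, which was so for 1.53% of all genes tested. The log2 fold change was -0.26 (SE 0.18). In the main test, by limma, its unadjusted p was 0.175 and its adjusted p 0.9999, and an exact permutation test gave p = 0.0571. The whole-gene FPKM includes exons outside the deletion, so it does not measure how many cells lost the floxed exons. Of the neural stem cell markers 10 of 10 passed the filter, at 1899 to 3868 summed FPKM in the controls and 2083 to 3855 in Med23 CKO. Oligodendrocyte lineage markers, 7 of 7 of which passed, summed to 1084 to 4204 FPKM in the controls and to 649, 2568 and 2336 FPKM in KO_117, KO_214 and KO_218, with none at 0 in any library. That sum exceeded the neural stem cell sum in WT_116, KO_214 and KO_218. Mbp, a myelin protein of mature oligodendrocytes, ranged from 66.5 FPKM in KO_117 to 2234 FPKM in WT_116. The libraries of both groups also differed widely in other lists. Summed FPKM of 29 cell cycle genes ranged from 622 to 2034 in the controls and from 372 in KO_214 to 2570 in KO_117 among the Med23 CKO libraries, and the proliferation marker Mki67 from 4.08 FPKM in KO_214 to 86.5 FPKM in KO_117. Microglia and macrophage markers summed to between 39.0 and 249 FPKM in the controls and to 41.6, 1115 and 181 FPKM in KO_117, KO_214 and KO_218. No marker of that list was at 0 in any library, although Cx3cr1 did not pass the filter, and Aif1 ranged from 0.297 FPKM in KO_117 to 16.7 FPKM in KO_214. KO_214 was also the highest library for the endothelial list and for the mural and fibroblast list. KO_117 and KO_214 therefore form the extremes of the Med23 CKO group, and the 4 controls lie between them in the cell cycle list. Because whole cultures were sequenced, fewer cells of a type and less RNA per cell cannot be told apart in any value that follows.

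None of the Polycomb genes passed the test between Med23 CKO and control, where the difference between the groups is set against the spread between libraries. By limma on log2(FPKM + 1), 0 of the 9 passed an adjusted p of 0.05, against 0.0% of the 14151 genes tested, and 0 of the 9 reached an unadjusted p under 0.05, against 1.5% of all genes. Every one of the 9 had an adjusted p of 0.9999 (Benjamini-Hochberg over all genes). With an unadjusted p under 0.05, Med23 CKO was higher for 71 genes of the whole table and lower for 141, a division that became 102 and 123 after quantile normalization and 99 and 119 with each library centred on its median. Without KO_218 the balance turned, with 139 genes higher and 70 lower. The groups were without overlap for 0 of the 9, against 2.32% of all genes. Over all alternatives the lowest limma adjusted p of any member was 0.594. The fitted log2 fold change was positive for 2 members and negative for 7, beside 6196 positive and 7955 negative over all genes tested. The median was -0.08 for the members, beside -0.03 over all genes tested.

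**Figure D1:**
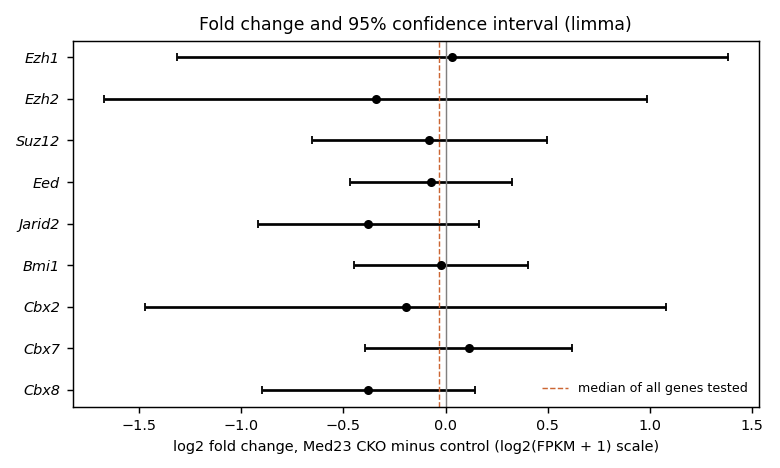
Log2 fold change of each Polycomb gene, Med23 CKO minus control, on the log2(FPKM + 1) scale, with the 95% confidence interval from limma (4 control and 3 Med23 CKO libraries); the dashed line is the median of all genes tested. All 9 intervals include 0, and those of Ezh1, Ezh2 and Cbx2 are the widest.

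The catalytic subunit Ezh2 was at 43.5, 18.1, 27.0 and 43.2 FPKM in WT_215, WT_116, WT_213 and WT_220 and at 56.2, 9.78 and 25.1 FPKM in KO_117, KO_214 and KO_218. The highest and the lowest library were both Med23 CKO, 5.75 times apart, and the controls filled the range between them. The group means were 33.0 ± 12.6 FPKM (SD, n = 4) and 30.4 ± 23.7 FPKM (SD, n = 3). The log2 fold change was -0.34 with a 95% interval from -1.67 to 0.99, and a two-sided exact permutation test, with 35 arrangements of the 7 libraries and a smallest possible p of 0.0286, gave p = 0.657. It was -0.93 without KO_117 and 0.27 without KO_214, so its direction turned without KO_214 and was kept without any other single library.

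Its alternative, Ezh1, ran the other way across the same libraries. Ezh1 was at 4.22, 9.09, 8.03 and 2.48 FPKM in WT_215, WT_116, WT_213 and WT_220 and at 1.86, 11.8 and 6.64 FPKM in KO_117, KO_214 and KO_218. KO_214, the lowest library for Ezh2, was the highest for Ezh1, and KO_117, the highest for Ezh2, was the lowest for Ezh1. Control and Med23 CKO averaged 5.96 ± 3.12 FPKM (SD, n = 4) and 6.75 ± 4.95 FPKM (SD, n = 3), with a log2 fold change of 0.03 (95% interval -1.31 to 1.38; exact permutation p = 0.943). Leaving out KO_117 gave 0.63 and leaving out KO_214 gave -0.45. The highest Ezh1 library was 6.32 times the lowest, and 18.1% of the genes tested had a larger ratio. The oligodendrocyte lineage list, the endothelial list and the mural and fibroblast list, like Ezh1, were each lowest in KO_117 and next lowest in WT_220. The endothelial list and the mural and fibroblast list were also highest in KO_214, like Ezh1, whereas the oligodendrocyte lineage sum was highest in WT_116. The parts of these lists in the result were not tested.

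The shared core subunit Suz12 was at 30.4, 21.7, 24.9 and 26.3 FPKM in WT_215, WT_116, WT_213 and WT_220 and at 33.5, 17.2 and 24.5 FPKM in KO_117, KO_214 and KO_218. The 7 libraries fell in exactly the same order as for Ezh2, but over a narrower range, 1.95 times from lowest to highest. Its log2 fold change of -0.08 (95% interval -0.65 to 0.49) was -0.31 without KO_117 and 0.15 without KO_214.

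Eed, the subunit that binds the methylated histone tail, varied least of all the members. Its values were 17.9, 23.3, 21.8 and 19.4 FPKM in WT_215, WT_116, WT_213 and WT_220 and were 20.9, 20.5 and 17.3 FPKM in KO_117, KO_214 and KO_218. The highest library was 1.35 times the lowest, and 94.3% of the genes tested had a larger ratio. KO_117 and KO_214, far apart for Ezh1 and Ezh2, had nearly the same Eed level. Between the groups Eed had a log2 fold change of -0.07 with a 95% interval from -0.47 to 0.33.

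Jarid2, the accessory subunit, was at 12.3, 8.66, 9.35 and 12.4 FPKM in WT_215, WT_116, WT_213 and WT_220 and at 10.5, 6.58 and 7.08 FPKM in KO_117, KO_214 and KO_218. KO_214 and KO_218 lay below every control, while KO_117 lay within the control range. The means were 10.7 ± 1.96 FPKM (SD, n = 4) and 8.05 ± 2.12 FPKM (SD, n = 3), and the log2 fold change was -0.38 with a 95% interval from -0.92 to 0.16, which did not pass the test (exact permutation p = 0.143). Group membership held 38.8% of the variation of Jarid2 between libraries on the log2(FPKM + 1) scale, against 4.86% for Ezh2 and 0.0491% for Ezh1. With so few libraries some share falls between groups by chance, and the share over all genes is not given here. Its log2 fold change was negative in every alternative run, from -0.56 without KO_117, where the unadjusted limma p was 0.0466, to -0.24 with the microglia and macrophage list as a covariate.

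**Figure D2:**
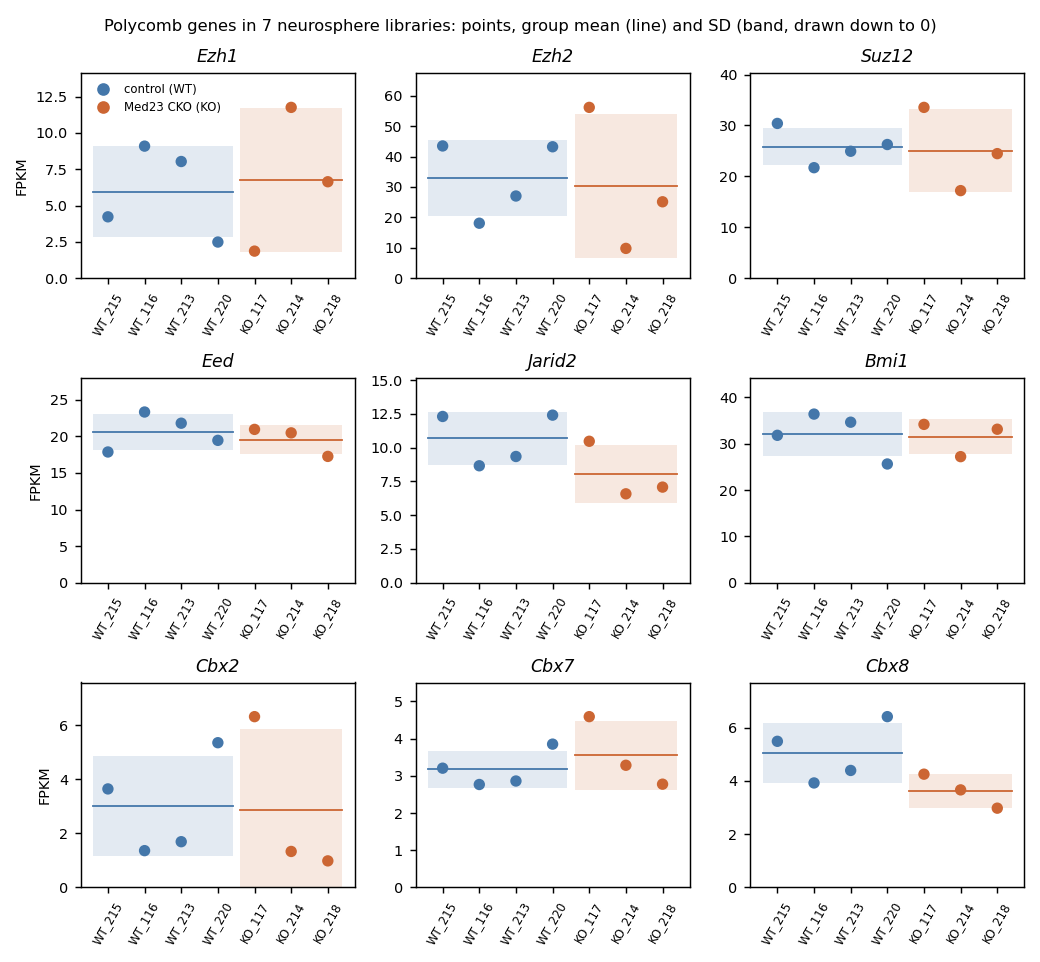
FPKM of the 9 Polycomb genes in each library (points; blue, control; orange, Med23 CKO), with the group mean (line) and the SD around it (band). The groups overlap for all 9 genes, and KO_117 and KO_214 are the extremes for Ezh1 and Ezh2.

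Since EZH1 and EZH2 take the same place in PRC2, their levels per length can be set side by side. Ezh2 exceeded Ezh1 by 10.3, 1.99, 3.37 and 17.4 times in FPKM in WT_215, WT_116, WT_213 and WT_220 and by 30.2 and 3.79 times in KO_117 and KO_218, and in KO_214 the ratio was 0.832. Ezh2 thus made up from 45.4% of the summed FPKM of both genes in KO_214 to 96.8% in KO_117, with the controls from 66.5% to 94.6%. The sum did not stay level: it ranged from 21.5 FPKM in KO_214 to 58.1 FPKM in KO_117. Against the shared subunits, the ratio of Ezh2 to Suz12 in FPKM ranged from 0.569 to 1.68 and that of Ezh2 to Eed from 0.478 to 2.68, in both cases from KO_214 to KO_117.

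The spread of Ezh2 and Ezh1 between libraries moved with the cell cycle list, whose mean log2(FPKM + 1) was 5.50, 3.75, 4.52 and 5.64 in WT_215, WT_116, WT_213 and WT_220, against 6.01, 2.91 and 4.50 in KO_117, KO_214 and KO_218. With group as a term, Ezh2 had a slope of 0.74 (SE 0.06) log2 units per 1 log2 unit of the list, and 3.32% of the genes tested had a larger one. Ezh1 had a slope of -0.71 (SE 0.10), and 94.8% of the genes tested had a larger one. Cbx2, of PRC1, followed with 0.59 (SE 0.15), then Suz12 with 0.26 (SE 0.07) and Jarid2 with 0.22 (SE 0.07). Bmi1, at 0.00 (SE 0.08), and Eed, at -0.05 (SE 0.07), did not move with the list beyond their errors. The slopes over all genes had a median of -0.01 and quartiles of -0.25 and 0.20. With any single library left out the slope stayed between 0.69 and 0.76 for Ezh2, -0.81 and -0.65 for Ezh1, 0.22 and 0.29 for Suz12 and 0.20 and 0.29 for Jarid2. The slope of Cbx2 was less steady, from 0.42 without KO_117 to 0.89 without KO_214, and that of Cbx7 ran from 0.065 to 0.23 without the same libraries. The slope of Eed ran from -0.16 without KO_117 to -0.018 without WT_116, and that of Bmi1 from -0.13 without KO_214 to 0.052 without WT_220. These slopes describe 7 libraries and were given no p.

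**Figure D3:**
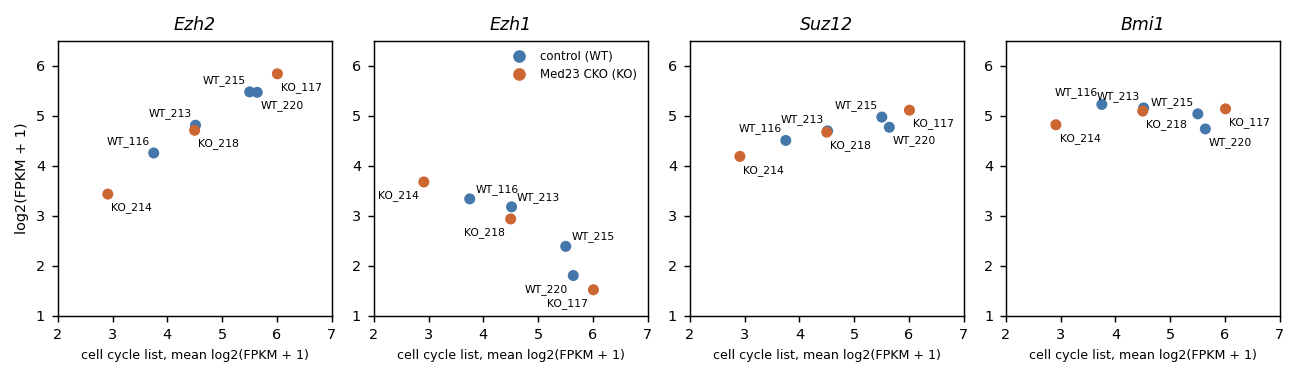
Level of Ezh2, Ezh1, Suz12 and Bmi1, as log2(FPKM + 1), against the mean log2(FPKM + 1) of 29 cell cycle genes in the 7 libraries (blue, control; orange, Med23 CKO). Ezh2 lies along a rising line and Ezh1 along a falling one, while Bmi1 is level.

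The microglia and macrophage list ran opposite to the cell cycle list over the libraries, with its highest mean, 4.77, in KO_214 and means of 1.49 in KO_117 and 1.42 in WT_220. On it Ezh1 had a slope of 0.69 (SE 0.12) and Ezh2 a slope of -0.69 (SE 0.11), beside an all-gene median of 0.02. The parts of both lists in these slopes cannot be told apart with 7 libraries. With the cell cycle list as a covariate the log2 fold change between the groups was -0.06 (SE 0.13) for Ezh2 and -0.24 (SE 0.21) for Ezh1, and with the microglia and macrophage list it was 0.15 (SE 0.24) and -0.46 (SE 0.25). Neither gene passed the test in either fit.

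**Figure D4:**
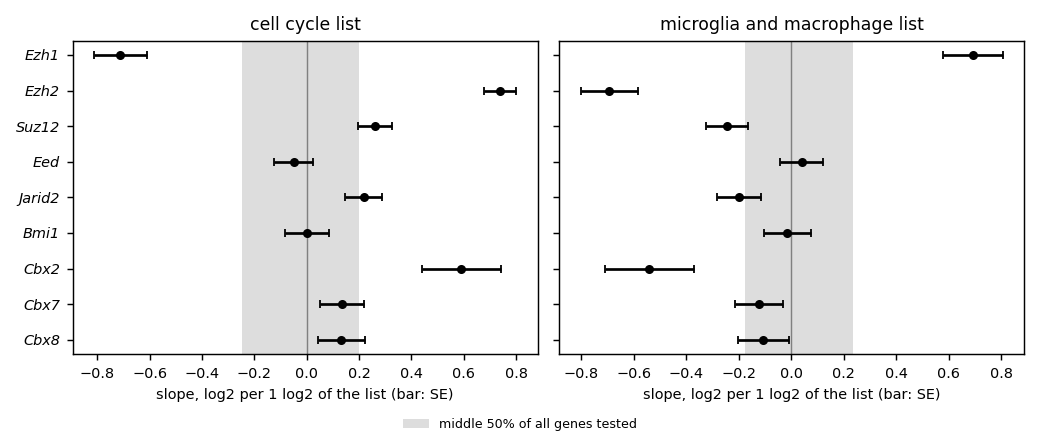
Slope of each Polycomb gene on the mean log2(FPKM + 1) of the cell cycle list (left) and of the microglia and macrophage list (right), in log2 units per 1 log2 unit with group as a term; bars are SE and the grey band spans the quartiles of all genes tested. Ezh1, Ezh2 and Cbx2 lie well outside the band, in opposite directions on the left and right.

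Genes with the profile most like that of Ezh2 over the 7 libraries, by the root mean square difference of z-scored log2(FPKM + 1), were Brca1 (0.0469), Ube2c (0.0633), Birc5 (0.0638), Sept3 (0.0643) and Arhgap11a (0.0688). Brca1 acts in DNA repair, and Ube2c and Birc5 act in mitosis. The genes nearest to Ezh1 were D1Ertd622e (0.0381), Tmem159 (0.0561), Rab21 (0.0609), Usp8 (0.0638) and Angptl2 (0.0805). Rab21 is a small GTPase of endosomes and Usp8 a deubiquitinase of the endocytic route. With 7 libraries and 14151 genes to choose from, close matches are a description only.

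Because Ezh2 and Suz12 fell in the same order of libraries and Ezh1 in nearly the reverse, their RefSeq promoters are shown, with letters of the E2F type, known from genes of the dividing cell, in capitals where present. The windows cover 250 bases before to 50 after a RefSeq start in GRCm38.p6, and 8 of the 9 members had one (Cbx2 was not matched, and Jarid2 had 2 windows). TTTCCCGC, TTTGGCGC, TTTCGCGC and TTTGCCGC were searched on both strands, and these patterns were chosen after the sequences had been looked at. Ezh2 is read on the minus strand from base -150 to base 12 of its start (chr6:47595019-47595180), and its match, TTTGGCGC, lies at bases 4 to 11. Only Ezh2 is shown past its start, to take in that match. In GENCODE the Ezh2 gene begins further upstream, at chr6:47595341, so this whole stretch lies inside the gene as annotated there. Suz12, on the plus strand, is shown from base -250 to base -1 (chr11:79992856-79993105), and its match, TTTCCCGC, lies at bases -219 to -212. Ezh1, on the minus strand, is shown over the same bases (chr11:101226464-101226713), and none of these letters were in its window.
Ezh2: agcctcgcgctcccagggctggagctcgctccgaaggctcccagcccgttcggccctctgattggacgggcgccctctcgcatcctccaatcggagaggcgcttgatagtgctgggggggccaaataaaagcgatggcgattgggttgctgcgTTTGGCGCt
Suz12: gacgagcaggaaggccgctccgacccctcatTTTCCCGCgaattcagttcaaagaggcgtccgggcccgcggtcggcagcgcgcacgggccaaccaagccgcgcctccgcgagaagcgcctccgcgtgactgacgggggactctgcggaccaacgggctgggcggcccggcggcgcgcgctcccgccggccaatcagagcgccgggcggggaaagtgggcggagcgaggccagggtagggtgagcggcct
Ezh1: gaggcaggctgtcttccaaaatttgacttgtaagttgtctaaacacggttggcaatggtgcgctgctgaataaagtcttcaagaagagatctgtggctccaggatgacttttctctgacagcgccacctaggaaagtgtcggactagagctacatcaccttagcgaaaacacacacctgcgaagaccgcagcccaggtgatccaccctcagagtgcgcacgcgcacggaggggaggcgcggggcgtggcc
Of the 9 member windows 2 held a match, beside 744 of all 32851 windows of this length, or 2.26%. Because the patterns were chosen after the member sequences had been looked at, the member count cannot be compared with that share. Ezh2 and Suz12 hold one, whereas Ezh1, Cbx7, Cbx8, Bmi1, Eed and Jarid2 are without these letters in their windows. A match is a run of letters and was not tested as a binding site.

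In the GENCODE annotation of GRCm38, the build the authors aligned to under the name mm10, Ezh2 lies at chr6:47530139-47595341 and Ezh1 at chr11:101191115-101226463, both on the minus strand. Suz12 lies at chr11:79993106-80034123 on the plus strand, Eed at chr7:89954654-89980983 on the minus strand and Jarid2 at chr13:44729474-44921643 on the plus strand. The library kit does not mark strand, so reads of an overlapping gene cannot be told from those of the member. Such overlaps cover 174 of the 6678 exon bases of Ezh2 (Gm26625), 178 of 4945 of Suz12 (Gm26563) and 261 of 3828 of Eed (E230029C05Rik), and none was found for Ezh1 and Jarid2.

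In PRC1, Bmi1, the PCGF protein known for its part in NSC self-renewal, was nearly as steady as Eed. Bmi1 (chr2:18677018-18686629, plus strand) was at 31.8, 36.4, 34.6 and 25.6 FPKM in WT_215, WT_116, WT_213 and WT_220 and at 34.2, 27.2 and 33.1 FPKM in KO_117, KO_214 and KO_218. Both the highest and the lowest library were controls, 1.42 times apart, and 90.6% of the genes tested had a larger ratio. Bmi1 had a log2 fold change of -0.02 with a 95% interval from -0.45 to 0.40. Among the 6 Pcgf genes, Bmi1 (Pcgf4) held between 35.3% and 42.3% of the summed FPKM in every library. Its closest relative, Pcgf2, was far less steady, from 2.17 FPKM in KO_218 to 10.6 FPKM in KO_117, with a log2 fold change of 0.13 (SE 0.47).

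Of the chromodomain proteins among the members, Cbx2, which is also known to compact chromatin, was the most variable. It was at 3.65, 1.36, 1.69 and 5.36 FPKM in WT_215, WT_116, WT_213 and WT_220 and at 6.32, 1.33 and 0.981 FPKM in KO_117, KO_214 and KO_218. KO_117 was the highest of the 7 libraries and KO_218 and KO_214 the lowest, 6.44 times from end to end, and the means were 3.01 ± 1.86 FPKM (SD, n = 4) and 2.88 ± 2.99 FPKM (SD, n = 3). The log2 fold change was -0.19 with a 95% interval from -1.47 to 1.08, and ran from -0.78 without KO_117 to 0.16 without KO_218.

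Cbx7, a reader of the PRC2 mark known from stem cells, was at 3.21, 2.77, 2.86 and 3.85 FPKM in WT_215, WT_116, WT_213 and WT_220 and at 4.59, 3.28 and 2.78 FPKM in KO_117, KO_214 and KO_218. All but KO_117 lay between 2.77 and 3.85 FPKM. For Cbx7 the log2 fold change was 0.11 with a 95% interval from -0.39 to 0.62. Apobec3 overlaps 100 of its 6487 exon bases (chr15:79915807-79971119, minus strand).

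Cbx8, another reader of the same mark, was at 5.49, 3.92, 4.39 and 6.42 FPKM in WT_215, WT_116, WT_213 and WT_220 and at 4.25, 3.66 and 2.98 FPKM in KO_117, KO_214 and KO_218. KO_214 and KO_218 lay below every control, and KO_117 lay above WT_116 alone. The means were 5.06 ± 1.119 FPKM (SD, n = 4) and 3.63 ± 0.639 FPKM (SD, n = 3), with a log2 fold change of -0.38 (95% interval -0.90 to 0.14) that did not pass the test (exact permutation p = 0.114). Group membership held 45.6% of the variation of Cbx8 between libraries, the largest share among the 9 members and so picked after the values were seen. The unadjusted limma p was 0.132, and the share over all genes is not given here. Its log2 fold change was negative in every alternative run, from -0.49 with array weights, where the unadjusted limma p was 0.0268, to -0.27 without KO_218.

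The Cbx genes of PRC1 carried unequal weight in these cultures. Cbx6, not among the 9 members, was the most abundant, with 68.6% to 74.2% of the summed FPKM of Cbx2, Cbx6, Cbx7 and Cbx8 in the 7 libraries. Cbx7 held 6.88% to 9.04% in the controls and 9.50% to 10.6% in Med23 CKO, so the shares of the groups did not overlap, although the FPKM values did. Cbx8 held 11.5% to 13.5% in the controls and 8.81% to 11.6% in Med23 CKO, where KO_214 lay above WT_220. Cbx2 held between 3.75% in KO_218 and 13.1% in KO_117. Shares of one sum are not independent of each other.

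The ratio of Cbx8 to Cbx7 in FPKM was 1.71, 1.42, 1.54 and 1.67 in WT_215, WT_116, WT_213 and WT_220, against 0.926, 1.116 and 1.07 in KO_117, KO_214 and KO_218. Every Med23 CKO library lay below every control, with means of 1.04 ± 0.0991 (SD, n = 3) and 1.58 ± 0.133 (SD, n = 4). The log2 ratio differed by -0.61, and by between -0.66 and -0.53 when any single library was left out. The ratio and the shares were chosen after their values were seen, so they were given no test. Of the 14150 genes tested other than the divisor, 6.84% likewise lay below without overlap as a ratio to Cbx7, and 11.6% lay above without overlap as a ratio to Cbx8. Cbx6 was among the former, at 8.15 to 10.5 times Cbx7 in the controls and 6.99 to 7.22 times in Med23 CKO.

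**Figure D5:**
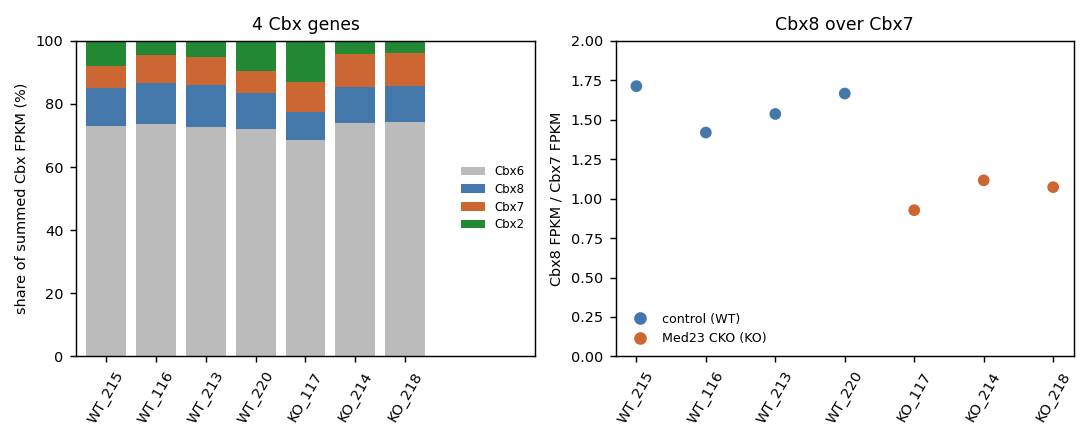
Left, share of each of 4 Cbx genes in their summed FPKM, in percent, for each library; right, ratio of Cbx8 to Cbx7 in FPKM for each library (blue, control; orange, Med23 CKO). Cbx6 is the largest share in every library, and the ratio is 1.42 to 1.71 in the controls and 0.926 to 1.116 in Med23 CKO.

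Cbx2 and Cbx8 lie close together on chromosome 11. Cbx2 (chr11:119022962-119031270, plus strand) ends 5034 bases before Cbx8 (chr11:119036305-119040969, minus strand). Their slopes on the cell cycle list were 0.59 (SE 0.15) for Cbx2 and 0.13 (SE 0.09) for Cbx8, and their log2 fold changes were -0.19 and -0.38. The slope of Cbx8 was 0.095 without WT_116 and 0.28 without KO_214, and that of Cbx2 was 0.42 without KO_117.

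Ordered by mean FPKM over the 7 libraries, Bmi1 (31.9) and Ezh2 (31.9) were followed by Suz12 (25.5), Eed (20.1), Jarid2 (9.55), Ezh1 (6.297), Cbx8 (4.45), Cbx7 (3.33) and Cbx2 (2.96). Only the step from Eed to Jarid2 had no overlap of library values, with Eed higher in 7 of 7 libraries. Bmi1 was above Ezh2 in 4 of 7 libraries, Ezh1 above Cbx8 in 4, Cbx7 above Cbx2 in 4 and Cbx8 above Cbx7 in 6, so these neighbours were not separated.

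None of the wider Polycomb machinery passed the test either, as was so for all 14151 genes tested. Of 39 further genes, 7 PRC2 partners, 8 of canonical PRC1, 17 of variant PRC1 and 7 enzymes that oppose Polycomb, all were tested and 0 reached an unadjusted p under 0.05, against 0.502% of all genes higher and 0.996% lower. For all 39 the groups overlapped, while 2.32% of all genes tested were without overlap. Med23 CKO was higher for 14 and lower for 25, beside 6196 higher and 7955 lower over all genes tested. The median log2 fold change was -0.04, beside -0.03 over all genes tested. The enzymes that ubiquitinate H2A, Ring1 and Rnf2, had log2 fold changes of -0.24 (SE 0.28) and 0.19 (SE 0.22), and Rnf2 held 53.4% to 79.8% of their summed FPKM. Cbx6 had a log2 fold change of -0.23 (SE 0.28).

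Some partner and opposing genes also varied widely between libraries, and those named next were chosen after their values were seen. Phf19, a Polycomb-like subunit of PRC2, was at 8.30, 2.06, 3.36 and 8.62 FPKM in WT_215, WT_116, WT_213 and WT_220 and at 11.01, 1.09 and 3.12 FPKM in KO_117, KO_214 and KO_218. Its slope on the cell cycle list was 0.85 (SE 0.08), above that of Ezh2, and 2.06% of the genes tested had a larger one. Kdm2b, which brings variant PRC1 to unmethylated CpG islands, had a slope of 0.72 (SE 0.12). Epop, listed as E130012A19Rik and also a PRC2 partner, had a slope of 0.58 (SE 0.17). Kdm6b, which removes the PRC2 mark, had a slope of 0.61 (SE 0.16) and the largest log2 fold change of the 39, -0.52 (SE 0.57). By contrast the histone-binding subunits Rbbp4 and Rbbp7, shared with other complexes, had slopes of 0.20 (SE 0.06) and 0.26 (SE 0.06), close to Suz12.

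Most textbook targets of Polycomb were at or near 0 FPKM in both groups. Of 39 Hox genes, 0 passed the filter, 12 were listed at 0 in every library, and the highest value was 0.357 FPKM, for Hoxc8 in WT_116. Among these 39 Hox genes the groups did not overlap for Hoxa5, while 2.32% of all genes tested were without overlap. Hoxa5 was near 0 throughout and, below the filter, was not tested. It was at 0, 0, 0 and 0.0251 FPKM in WT_215, WT_116, WT_213 and WT_220. In KO_117, KO_214 and KO_218 it was at 0.0588, 0.0628 and 0.0645 FPKM. Between 7 and 17 Hox genes were above 0 per library, with no more in any Med23 CKO library than in WT_116, and their summed FPKM was 0.187 to 1.98 in the controls and 0.459 to 1.11 in Med23 CKO. Of 12 other developmental regulators, 2 passed the filter: Nkx2-2, a factor of the oligodendrocyte lineage and ventral neural tube, had a log2 fold change of -0.57 (SE 0.62), and Tbx3 one of 0.52 (SE 0.39).

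The Ink4 locus, by contrast, was expressed. Cdkn2b, which encodes the cell cycle inhibitor p15, was at 26.6, 20.1, 28.1 and 40.0 FPKM in WT_215, WT_116, WT_213 and WT_220 and at 7.95, 25.9 and 10.3 FPKM in KO_117, KO_214 and KO_218. KO_117 and KO_218 lay below every control, while KO_214 lay within the control range. The log2 fold change was -1.05 (SE 0.41), with an unadjusted limma p of 0.0337 that did not pass adjustment (adjusted p = 0.9999) and an exact permutation p of 0.0571. It was negative when each library was left out in turn, from -1.52 without KO_214 to -0.73 without KO_117, where the unadjusted limma p was 0.112. Its lowest adjusted p in any alternative was 0.594.

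Cdkn2a, which encodes p16 and the p53 regulator ARF and whose products gene-level values cannot separate, was at 41.7, 10.8, 56.4 and 114 FPKM in WT_215, WT_116, WT_213 and WT_220 and at 45.2, 11.1 and 21.4 FPKM in KO_117, KO_214 and KO_218. The groups overlapped, and WT_220 was the highest by far. The log2 fold change was -0.88 (SE 0.78; exact permutation p = 0.429), and was -0.40 without WT_220, -0.41 without KO_214 and -1.37 without KO_117. Without WT_116 it was -1.50, with an unadjusted limma p of 0.0364 that did not pass adjustment (adjusted p = 0.997). On the cell cycle list Cdkn2a had a slope of 0.84 (SE 0.22) and Cdkn2b a slope of -0.23 (SE 0.17), so the neighbouring inhibitors did not share that pattern.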

How the data were processed

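RNA from primary hippocampal neurospheres of 4 control and 3 Med23 CKO mice was analysed, with each library matched to its group by its title and genotype label. The paper gives a smaller number of control cultures and does not name them, so no control was left out. Per the methods and processing notes, the authors checked reads with FastQC, removed adapters with cutadapt, aligned them to mm10 with TopHat and deposited, for each library, the FPKM of every gene from Cuffdiff. The table also holds the authors' own comparison (group values, fold change, test statistic, p and q), which was not used. Read depth is unknown, so counting intervals are absent and precision rests on the number of libraries. Libraries listed 16841 to 18113 genes above 0, correlated at 0.788 to 0.979 on the log2(FPKM + 1) scale, and no pair was identical.

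Genes with a mean of at least 0.5 FPKM over the 7 libraries were tested as log2(FPKM + 1), a scale that understates changes of low genes, by limma 3.58.1 in R 4.3.3 (lmFit, eBayes with trend, two-sided, Benjamini-Hochberg over all 14151 genes). Named genes were also tested by exact permutation over 35 arrangements of the libraries. The code was tested on simulated data. Slopes were fitted with group as a term. Named with values were the 9 members, Med23, list genes with an unadjusted p under 0.05 or groups that did not overlap, Cbx6, Pcgf2, Ring1, Rnf2, Cdkn2a, Cdkn2b, the 5 genes nearest in profile to Ezh1 and Ezh2, and Mki67 and Aif1 as examples of marker lists. Named outside that rule, after their values were seen, were Phf19, Kdm2b, Epop, Kdm6b, Rbbp4, Rbbp7, Nkx2-2, Tbx3, Hoxc8, Cx3cr1, Mbp and the genes overlapping a member. Coordinates came from GENCODE (GRCm38) and promoters from RefSeq (GRCm38.p6). The members and gene lists were chosen with earlier results of these data known. An item of the PRC1 list is not reported here.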

Additional observations from a re-analysis of the deposited data

How the results depend on the processing

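No paired analysis was possible because each number names a single mouse and the labels give no litter that joins mice of both groups. A fit that also took up the leading digit of each mouse's number, whose meaning the labels do not give, gave 61 genes higher in Med23 CKO and 101 lower by an unadjusted p under 0.05, with 0 of the 9 members among them, and each member kept its direction. Of 171 alternative log2 fold changes of the 9 Polycomb genes, 148 kept their direction and side of the threshold and 23 turned in direction, all among Ezh1, Ezh2, Suz12, Eed, Bmi1, Cbx2 and Cbx7. Jarid2 and Cbx8 stayed negative in all 19 alternatives of each. Alternatives that changed only the filter on low values, limma's estimate of error (without trend, or robust) or the test returned the same fold change. Its direction could not turn in them, so they add nothing to the number that kept it. With the cell cycle list as a covariate the log2 fold change was -0.24 for Ezh1, 0.019 for Suz12 and 0.029 for Cbx2, and with the microglia and macrophage list it was -0.46 for Ezh1, 0.15 for Ezh2, 0.094 for Suz12 and 0.19 for Cbx2. Centring each library on its median gave 0.0039 for Bmi1, and array weights gave -0.035 for Cbx7 and -0.44 for Pcgf2. Leaving out each library in turn gave -0.45 to 0.63 for Ezh1, -0.93 to 0.27 for Ezh2, -0.31 to 0.15 for Suz12, -0.13 to 0.014 for Eed, -0.12 to 0.077 for Bmi1, -0.78 to 0.16 for Cbx2, -0.045 to 0.24 for Cbx7, -0.42 to 0.51 for Pcgf2 and -0.39 to 0.00024 for Ring1.

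Of the 9 members, 2 (Jarid2 and Cbx8) reached an unadjusted limma p under 0.05 with array weights, a fit whose weights did not fully converge. When a library was left out, 0 to 1 did, the 1 without KO_117. Both fits called more genes of all 14151 tested than the main fit, which had 71 higher and 141 lower. With array weights 193 were higher and 887 lower, and without KO_117 354 were higher and 410 lower. Of the 39 partner and opposing genes the number was 3 with array weights and 0 to 2 with a library left out, and of the targets it was 2 with no filter on low values and 0 to 2 with a library left out. Cdkn2b was no longer among them without WT_215, WT_213, WT_220, KO_117 or KO_218. Over all genes, those higher at an unadjusted p under 0.05 numbered 140 with no filter, 193 with array weights, 202 with the cell cycle list and 157 with the microglia and macrophage list as covariate, and 45 (without WT_215) to 354 (without KO_117) with a library left out. Those lower numbered 887, 440 and 419 under the last 3 of these fits, and 70 (without KO_218) to 410 (without KO_117). Genes past the adjusted threshold numbered 0 to 1 with a library left out, the 1 without KO_214 and the 1 without KO_218. The causes were not tested. In the main fit, with 3 Med23 CKO libraries, Ezh1, Ezh2 and Cbx2 had the widest confidence intervals of the 9 members. Their log2 fold changes had intervals of -1.31 to 1.38, -1.67 to 0.99 and -1.47 to 1.08, in that order. Changes in either direction within these intervals were therefore not excluded. The part of the unequal makeup of the libraries in these widths was not tested.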
